A study of Mus musculus with 29 samples.

Results

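The 8 genes Flt3, Zbtb46, Xcr1, Clec9a, Cd209a, Fscn1, Ccr7 and Ccl22 mark the dendritic cell lineage and its migratory state. They were chosen by name, from 27827 genes held by the single-cell tables of a mouse stroke study. Their levels were followed in every library as CPM: a gene's counts summed over all cells of 1 library and 1 labelled cell type, with all genes of that sum scaled to a total of 1000000. All 8 genes had rows in the brain tables. Flt3, Zbtb46, Clec9a, Cd209a and Ccr7 had rows in the blood tables, and Xcr1, Fscn1 and Ccl22 were not analysed in blood.

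The study used Drop-seq, a droplet method that counts the 3′ ends of transcripts in single cells, on C57BL/6J mice given a sham operation or an ischemic stroke, made by closing the middle cerebral artery for a time. Male mice aged 8 to 10 weeks gave 12 brain libraries (4 sham at day 2, 4 stroke at day 2, 4 stroke at day 14) and 11 blood libraries (4 sham at day 2, 4 stroke at day 2, 3 stroke at day 14). Mice aged 17 to 20 months gave 6 brain libraries: sham at day 2 from 1 male and 1 female library, stroke at day 2 from 1 male and 2 female libraries, and stroke at day 14 from 1 female library. Brain cells came from 4 to 5 pooled hemispheres per library, digested with papain in the presence of actinomycin D, and were sorted as CD45high cells, microglia and endothelial cells. Blood was pooled from 2 mice per library, freed of red cells and depleted of Ter-119-positive cells. There was no sham group at day 14, so a difference between stroke at day 14 and sham mixes the stroke with the time since surgery, and these cannot be told apart. The comparisons of day 2 and of day 14 with sham share the sham libraries. The animals of a library were pooled, so p-values measure the spread between pools.

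Dendritic cells take up antigen, and after activation they carry it to lymph nodes and present it to T cells. Flt3, the receptor for Flt3 ligand, drives their development, and Zbtb46 is a transcription factor of the classical dendritic cell lineage that endothelial cells also express. Classical type 1 cells (cDC1), which present antigen to CD8 T cells, carry Xcr1, the receptor for the chemokine Xcl1, and Clec9a, a lectin that binds actin exposed by dead cells. Cd209a is a lectin of the DC-SIGN family found on classical type 2 cells (cDC2) and on dendritic cells derived from monocytes. In mature migratory cells, Fscn1 (fascin) bundles actin in the dendrites, Ccr7 guides the cells to lymph nodes along Ccl19 and Ccl21, and Ccl22 attracts T cells that carry Ccr4.

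The 29 libraries held 106977 cells and between 819438 and 5855050 counts each, with a median of 2580020. Of these cells, 3278 in the young brain, 470 in the aged brain and 508 in blood carried the authors' label DC. Each young brain library held 61 to 86 DC in the sham group, 163 to 414 at day 2 and 371 to 537 at day 14, or 1.53% to 2.26%, 3.63% to 11.7% and 10.5% to 16.4% of its cells. The sham DC sums therefore rest on 29892 to 70236 counts, against 189924 to 694901 after stroke. At the smallest of these sums a gene with no count is below 100.4 CPM (3 counts), which covers counting error only. In blood, libraries with at least 20 DC numbered 2 in the sham group, 1 at day 2 and 3 at day 14, and no blood comparison of day 2 was tested, since a blood group had to hold 2 such libraries. Any 2 libraries shared between 0 and 7 cell barcodes, with a median of 1 over 406 pairs.

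The label DC was set against lists of marker genes. The dendritic list holds the members Flt3, Zbtb46, Cd209a, Clec9a and Xcr1, so it is no separate check on them. It also holds H2-Aa, H2-Ab1 and Cd74, genes of MHC class II presentation, and the part of each gene in its mean was not tested. Among 9 marker lists, that of dendritic cells was the highest in DC of the young brain (a mean of 4496 CPM per gene, against 332 for the monocyte or macrophage list and 3 or less for the B and T cell lists). It was also the highest in DC of the aged brain (3509) and of blood (2999, against 1333 for the monocyte or macrophage list). The authors divided brain DC into codes DC1 to DC9 and blood DC into codes DC1 to DC5, which are separate sets of codes. The dendritic list led in every brain code except DC8, where the plasmacytoid list led (1669 CPM per gene), and in blood DC2 the monocyte or macrophage list led (3762). Brain DC4 cells were shallow, with a median of 262 counts per cell against 610 to 1229 in the other brain codes.

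Fscn1 and Ccl22 shared 1 group of cells and Xcr1 and Clec9a another, as described below, so their promoters are shown. The sequences are from RefSeq on GRCm38.p6, given 5′ to 3′ on the strand of the gene, and end 1 base before the transcript start in GENCODE. RefSeq entries matched 7 of the 8 genes (all but Ccr7), and a window for Zbtb46 was searched but lies within the gene. Capitals mark a match to the motifs named after the sequences.

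Fscn1, chr5:142960105-142960342, plus strand: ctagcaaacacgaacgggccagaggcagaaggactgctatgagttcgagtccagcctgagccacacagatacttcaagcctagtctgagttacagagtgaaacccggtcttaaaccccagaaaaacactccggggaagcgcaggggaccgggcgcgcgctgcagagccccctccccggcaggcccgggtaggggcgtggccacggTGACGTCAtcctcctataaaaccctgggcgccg
Ccl22, chr8:94745434-94745589, plus strand: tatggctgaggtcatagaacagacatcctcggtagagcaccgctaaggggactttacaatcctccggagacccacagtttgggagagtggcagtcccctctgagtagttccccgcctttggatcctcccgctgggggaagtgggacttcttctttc
Xcr1, chr9:123862030-123862279, minus strand: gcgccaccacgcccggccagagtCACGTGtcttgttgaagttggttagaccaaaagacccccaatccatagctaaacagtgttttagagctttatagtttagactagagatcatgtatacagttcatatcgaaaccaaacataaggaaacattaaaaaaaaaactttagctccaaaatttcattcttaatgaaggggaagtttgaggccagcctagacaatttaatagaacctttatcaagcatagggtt
Clec9a, chr6:129408612-129408861, plus strand: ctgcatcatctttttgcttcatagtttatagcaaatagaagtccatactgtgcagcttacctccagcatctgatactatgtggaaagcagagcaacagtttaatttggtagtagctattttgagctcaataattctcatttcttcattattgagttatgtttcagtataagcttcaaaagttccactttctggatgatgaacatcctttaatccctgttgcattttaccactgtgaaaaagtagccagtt

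The 250 bases before each RefSeq start were searched on both strands for 6 motifs. The Fscn1 promoter held the cyclic AMP response element half-site TGACGT on both strands, at -45 and -43 from the RefSeq start, as 2 matches that overlap. The Fscn1 sequence shown above holds the first 238 of these 250 bases, so it ends short of that start. This half-site occurred at least once, on either strand, in 6.47% of 32851 promoter windows of the same length. The share of windows with 2 overlapping matches was not counted. The Xcr1 promoter held the E-box CACGTG at -227 (6.02% of windows), and the Zbtb46 window held the AP-1 site TGANTCA at -61 (6.75% of windows). Neither the Ccl22 nor the Clec9a window matched a motif. None of the 7 members searched matched the PU.1 and IRF composite (GGAA, any 2 bases, GAAA; 2.3% of windows), the interferon response element (GAAA, any 2 bases, GAAA; 2.98%) or the NF-kB consensus (3.9%). On GRCm38 the genes lie at chr5:147330741-147400489 (Flt3, minus strand), chr2:181387762-181459426 (Zbtb46, minus), chr9:123852315-123862029 (Xcr1, minus), chr6:129408862-129424763 (Clec9a, plus), chr8:3743397-3748984 (Cd209a, minus), chr5:142960343-142973185 (Fscn1, plus), chr11:99144196-99155077 (Ccr7, minus) and chr8:94745590-94751699 (Ccl22, plus).

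In the young brain, 6 of the 8 genes had most of their counts in DC, which made up 7.58% of the cells. DC held 98.1% of the Xcr1 counts, 96.1% of Ccl22, 94.7% of Clec9a, 89.0% of Cd209a, 88% of Flt3 and 85.9% of Ccr7. Zbtb46 and Fscn1 differed from these. Endothelial cells (the authors' EC) held 56.3% of the Zbtb46 counts and DC 34.1%, and microglia (Mg) held 75.6% of the Fscn1 counts and DC 21.8%. Pooled over libraries, Zbtb46 stood at 30.5 CPM in DC and 43.8 in EC, and Fscn1 at 205 CPM in DC and 154 in Mg. The cells labelled OD had Fscn1 at 253 CPM, with 0.666% of its counts. Ccr7 stood at 650 CPM in the cells labelled Bc, 445 in DC and 74.5 in those labelled Tc. Cd209a stood at 628 CPM in DC, 53.3 in the cells labelled BAM and 15.4 in those labelled MdC, both of which had monocyte or macrophage genes as their highest marker list. These levels describe pooled cells and were not tested between types, since cells of a type were grouped by their genes.

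**Figure D1:**
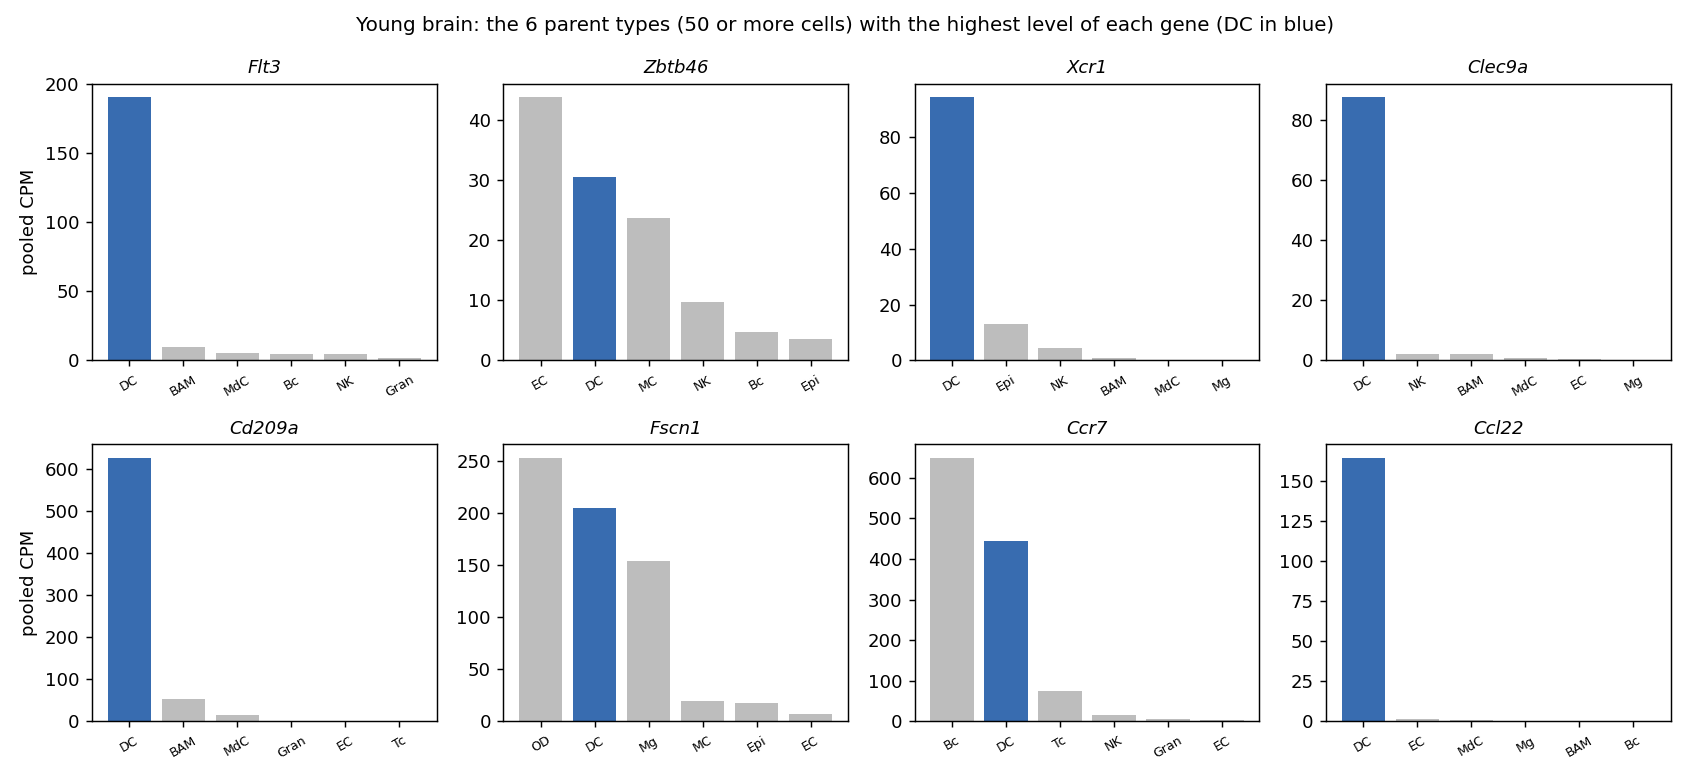
CPM of each of the 8 genes (vertical axes, linear scale from 0) in the 6 labelled cell types where it was highest, among types with at least 50 cells, from counts pooled over the 12 young brain libraries. DC, in blue, was the highest type for Cd209a, Ccl22, Clec9a, Flt3 and Xcr1, while Bc led for Ccr7 (650 CPM), EC for Zbtb46 (43.8 CPM) and OD for Fscn1 (253 CPM).

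Within brain DC the genes split by code. In DC5, 339 cells or 10.3% of young brain DC, lay 98.6% of the Fscn1 counts of DC, 89.6% of Ccl22 and 86.8% of Ccr7. Pooled Fscn1 stood at 1697 CPM in DC5 and at most 16.1 CPM in each other code. Ccr7 stood at 3250 CPM in DC5, with 174 CPM in DC6 as the next, and Ccl22 stood at 1241 CPM in DC5, with 78.9 CPM in DC7 as the next. DC2, with 615 cells, held 83.8% of the Xcr1 counts and 74.3% of the Clec9a counts. Xcr1 stood at 399.9 CPM in DC2 and 288 CPM in DC9, and Clec9a at 329.7 CPM in DC2, 239.6 CPM in DC9 and 123 CPM in DC8. The high codes of both cDC1 genes were therefore DC2 and DC9.

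Cd209a was spread over more codes and was low where the others were high. It was highest in DC7 (2532 CPM), followed by DC3 (898), DC1 (894) and DC6 (840.5), and lowest in DC5 (21.3), DC2 (28.3) and DC9 (48.4). Its counts came to 33.8% from DC1, 30.0% from DC3, 18.3% from DC7 and 12.4% from DC6. Flt3 was present in all 9 codes, from 35.4 CPM in the shallow DC4 and 92.6 CPM in DC7 to 255 CPM in DC8 and 277 CPM in DC2. Zbtb46 ranged from 11.7 CPM in DC4 to 47.3 CPM in DC2. In aged brain DC5, Ccr7 (3125 CPM), Fscn1 (1992 CPM) and Ccl22 (1284 CPM) were again together, and aged DC6 held Ccl22 at 651 CPM.

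**Figure D2:**
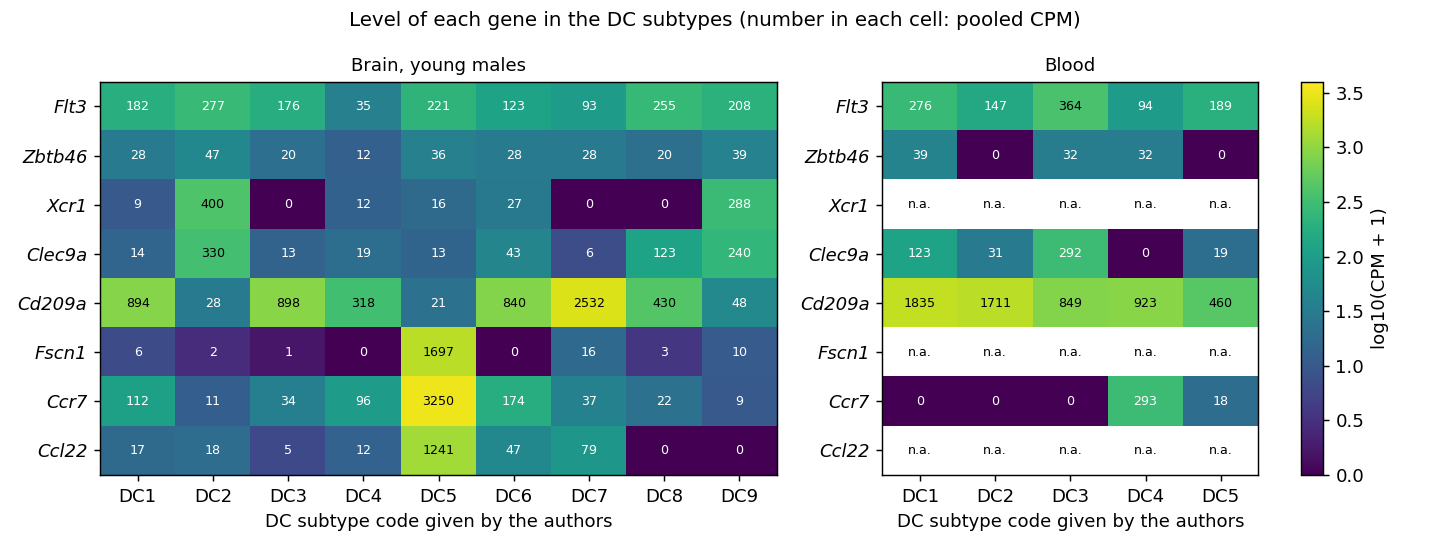
Pooled CPM of the 8 genes (rows) in the authors' DC codes (columns) of the young brain and of blood, with the number in each cell and the colour on a log10(CPM + 1) scale; n.a. marks genes not analysed in blood. Fscn1, Ccr7 and Ccl22 are high in brain DC5, Xcr1 and Clec9a in DC2 and DC9, and Cd209a in DC7, DC3, DC1 and DC6.

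Single cells showed the same pairs. Of 176 young brain DC with Fscn1, 140 (79.5%) also had Ccr7 and 59 (33.5%) had Ccl22, against 6.6% and 3.4% of the DC without Fscn1. Of 166 cells with Xcr1, 70 (42.2%) had Clec9a, against 5.1% without Xcr1, while 7 (4.2%) had Cd209a, against 24.4%. Of 767 cells with Cd209a, 0.3% had Fscn1, against 6.9% of the rest. A cell was counted as having a gene above a value of 0.5. Cells with a gene were deeper, with a median of 1172 counts with Fscn1 and 797 without, and 1502 with Xcr1 and 797 without. Over all young brain DC, Xcr1 was seen in 5.06% of cells and Cd209a in 23.4% at a median of 822 counts. The same genes were seen in 0 of 5880 and 0.068% of EC, at a median of 496 counts.

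Among the genes of lineage development, Flt3 was found in every library of brain DC. Its values in sham replicates 1 to 4 were 99.1, 140.1, 133 and 187 CPM, those at day 2 were 188, 156, 199 and 160.0, and those at day 14 were 166, 153, 243 and 247. The groups overlapped, with means of 139.8 ± 36.3, 175.5 ± 21.1 and 202 ± 49.9 CPM (SD, n = 4 each). The log2 fold change was 0.34 ± 0.28 (SE) at day 2 against sham and 0.52 ± 0.27 at day 14 against sham. With edgeR's quasi-likelihood test, their adjusted p values over 4365 genes were 0.652 and 0.514.

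Zbtb46 stood at 50.3, 44.1, 31.4 and 45.4 CPM in the sham libraries, at 15, 16.6, 29.9 and 5.5 at day 2, and at 27.1, 33.3, 54.2 and 21.5 at day 14. Every day 2 library was lower than every sham library, and the day 14 libraries overlapped both groups. At day 2 the log2 fold change was -1.46 ± 0.58, with an adjusted p of 0.246. The filter on low counts asked for 4 libraries at or above its cut-off, and Zbtb46 had 3 in sham, 0 at day 2 and 1 at day 14. It thus passed the filter with no day 2 library, and this test is not read as a result. The Zbtb46 levels rest on few counts, 0.9 to 3.5 in each sham library, and 3 counts there correspond to 42.7 to 100.4 CPM.

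**Figure D3:**
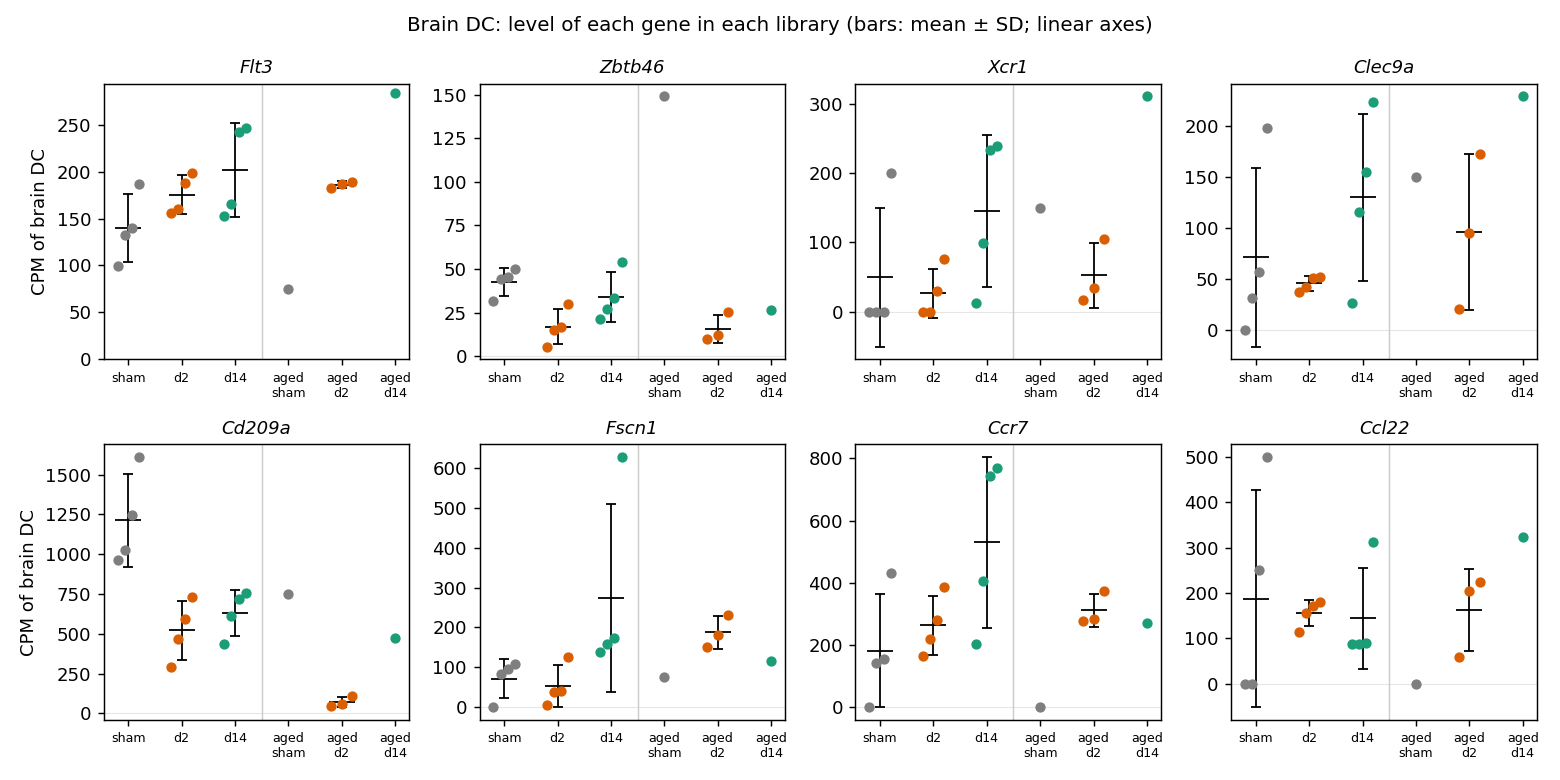
CPM in brain DC for each of the 8 genes (one panel each, linear axes), with 1 point per library of at least 20 DC, set in order of value, and bars for the mean ± SD of the young groups (n = 4 each) and of the aged day 2 group (n = 3). The aged sham and day 14 groups have 1 library each. Cd209a separates the sham libraries (966 to 1611 CPM) from all stroke libraries of young mice (292 to 757 CPM), and Fscn1 and Ccr7 reach their highest values at day 14.

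Of the 2 genes of cDC1, Xcr1 had no count in sham replicates 1, 2 and 4 and stood at 199.9 CPM (6 counts) in replicate 3. At day 2 it stood at 30.2, 0, 75.4 and 0 CPM, and at day 14 at 13.1, 98.6, 232 and 238 CPM. At the depth of the sham libraries 3 counts equal 42.7 to 100.4 CPM, so the empty sham libraries cannot be placed below those of day 2. Clec9a stood at 56.9, 31.3, 199 and 0 CPM in sham, at 51.0, 37.6, 42.4 and 52.4 CPM at day 2, and at 26.3, 116, 155 and 223 CPM at day 14. For both genes 3 of 4 day 14 libraries were above all day 2 libraries, and day 14 replicate 1 was within or below their range. At day 14 against day 2 the log2 fold change was 2.24 ± 0.98 for Xcr1 and 1.48 ± 0.57 for Clec9a, with adjusted p values of 0.394 and 0.300. Of the 4 libraries that the filter on low counts required, sham and day 2 gave Xcr1 only 1 each, and day 14 gave 3. Xcr1 thus would not have passed it without the day 14 libraries, where it is high.

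Counted over the 8 genes, edgeR called none at an adjusted p under 0.05 in any of the 3 comparisons of young brain DC. It called 44 of 4365 genes (1.01%) at day 2 against sham, 67 (1.53%) at day 14 against sham and 39 (0.893%) at day 14 against day 2. At an unadjusted p under 0.05 stood 2 members (Cd209a and Zbtb46), 3 (Ccr7, Cd209a and Fscn1) and 4 (Clec9a, Fscn1, Zbtb46 and Xcr1), in that order, beside 659, 503 and 493 of all 4365 genes. Zbtb46 and Xcr1 passed the filter on low counts mainly through groups where they are high, as given above, so their places in these counts are not read as a result. DESeq2 called 1, 0 and 1 member: Cd209a at day 2 and Fscn1 at day 14 against day 2, where it called 1.99%, 2.13% and 2.66% of all genes in the 3 comparisons. A sum over a labelled type cannot tell fewer cells of a subtype from less RNA per cell.

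In brain DC, Cd209a was lower in every young stroke library than in every sham library. Its levels were 1249, 1611, 966 and 1029 CPM in sham replicates 1 to 4, 469.7, 292, 593 and 732 CPM at day 2, and 611, 435, 719.8 and 757 CPM at day 14. The highest stroke library (757 CPM) was below the lowest sham library (966 CPM). Means were 1214 ± 291 CPM in sham, 522 ± 187 at day 2 and 631 ± 144 at day 14 (SD, n = 4 each). The log2 fold change was -1.23 ± 0.30 at day 2 against sham (adjusted p = 0.0660 in edgeR) and -0.97 ± 0.30 at day 14 against sham (adjusted p = 0.145). DESeq2 gave an adjusted p of 0.0124 at day 2, and over 21 alternative settings the adjusted p ran from 0.0124 to 0.418. Between day 14 and day 2 the change was 0.27 ± 0.29 (adjusted p = 0.805). Cd209a lies in a cluster of related lectin genes, and how reads shared among them were assigned is not given in the sources used here.

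DC7, the code with the highest Cd209a, also differed in its share of DC. It made up 15.1% to 41.7% of DC in the sham libraries, a mean of 26.4% ± 11.7 (SD, n = 4), against 0% to 5.5% at day 2 and 0.7% to 6.2% at day 14. Within DC7 the pooled level was 2367 CPM in sham, 3275 at day 2 and 2387 at day 14. Within DC1 it was 2046 CPM in sham, 787 at day 2 and 879 at day 14. DC3 made up 30.9% to 44.2% of DC at day 2 and 3.9% to 6.7% at day 14. The part of these shares in the Cd209a difference was not tested. The monocyte or macrophage list, summed over its genes, was also higher in sham DC (6019 to 7293 CPM) than in DC at day 2 (2918 to 4922) and day 14 (3047 to 4759), and its part was not tested. The summed dendritic list overlapped between the groups, at 48177 to 57413, 41820 to 59541 and 47560 to 61382 CPM.

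**Figure D4:**
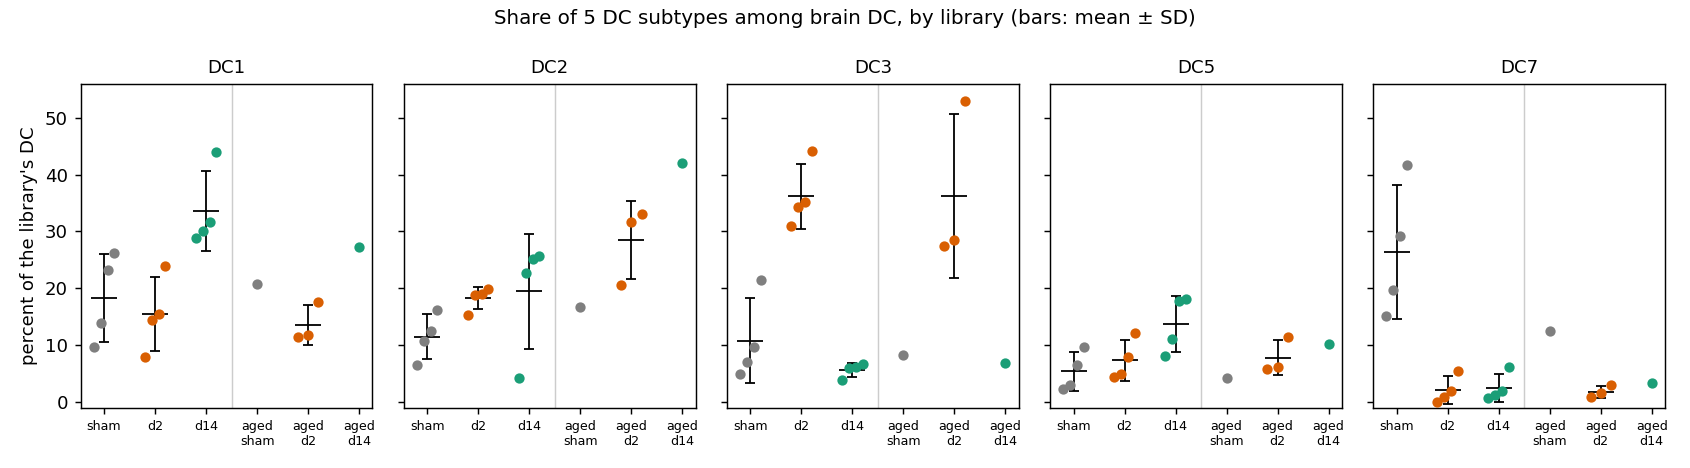
Share of each brain library's DC (percent, linear axis) held by codes DC1, DC2, DC3, DC5 and DC7, with 1 point per library and bars for the mean ± SD. DC7 holds 15.1% to 41.7% in sham and at most 6.2% after stroke in young mice, DC3 is highest at day 2, and DC5 reaches 18.1% at day 14.

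Among the genes of migration, Fscn1 was higher at day 14 than at day 2, by a test that passed in some fits and not in others. Its levels were 96.1, 82.8, 108 and 0 CPM in sham, 41.5, 127, 38.3 and 5.6 at day 2, and 159, 139, 628 and 173 at day 14. Every day 14 library was above every day 2 and sham library, and replicate 3 of day 14 stood far above the others. Means were 71.7 ± 48.8, 53.1 ± 51.9 and 275 ± 236 CPM (SD, n = 4 each). Without pairing the log2 fold change at day 14 against day 2 was 2.31 ± 0.67 with an adjusted p of 0.128 in edgeR, 0.0337 in DESeq2 and 0.00442 in edgeR without the filter on low counts. Same-numbered stroke libraries deviated together, and with the replicate number as a block it was 2.38 ± 0.52 with an adjusted p of 0.0245, in a fit that called 2.54% of genes, and 1 of the 8 members passed. Fitted on the 2 stroke groups alone, with the block, it was 2.33 ± 0.45 (adjusted p = 0.00497, 5.27% of genes called). Without day 2 replicate 2, the highest library of its group, the unpaired value was 3.06 with an adjusted p of 0.0378. In the 11 other omissions of 1 library the unpaired test made no call, with values from 1.63 (without day 14 replicate 3) upward and adjusted p values up to 0.393.

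Ccr7 stood at 156, 141.0, 432 and 0 CPM in sham, at 165, 221, 388 and 280.2 CPM at day 2, and at 770.0, 202, 743 and 407 CPM at day 14. The groups overlapped, with means of 182 ± 181, 263.5 ± 95.2 and 531 ± 274 CPM (SD, n = 4 each). Its log2 fold change was 1.62 ± 0.59 at day 14 against sham (adjusted p = 0.249) and 1.00 ± 0.51 at day 14 against day 2 (adjusted p = 0.489). Without the filter on low counts, edgeR gave Ccr7 an adjusted p of 0.0138 and Fscn1 one of 0.0227 at day 14 against sham. Ccl22 stood at 0, 251, 500.1 and 0 CPM in sham and at 180.1, 156, 171 and 115 CPM at day 2. Its day 14 levels were 87.0, 89.9, 312 and 87.5 CPM, and its course was not tested against those of Fscn1 and Ccr7. At day 14, 3 of 4 libraries were below all day 2 libraries, while replicate 3 was above them. Its log2 fold change at day 14 against day 2 was -0.15 ± 0.71, and at day 14 against sham it was -0.30 ± 0.82.

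The code that holds these genes, DC5, made up 2.3% to 9.7% of DC in sham, 4.3% to 12.1% at day 2 and 8.1% to 18.1% at day 14. Within DC5 libraries of at least 20 such cells, Ccr7 had a mean of 2993 ± 910 CPM at day 14 (SD, n = 4) and 2727 ± 866 CPM at day 2 (SD, n = 2). Its log2 fold change within DC5 was 0.09 ± 0.40. Fscn1 within DC5 was 870.0, 1288, 3566 and 1342 CPM at day 14 and 1318 and 376 CPM in day 2 replicates 2 and 3. Ccl22 within DC5 was 354, 740.3, 1631 and 597 CPM at day 14 and 1396 and 1613 CPM in those day 2 libraries. Only 1 of the 4 day 14 libraries, replicate 3, reached the Ccl22 level of the day 2 libraries.

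Within single codes, day 14 could be compared with day 2 in DC1 to DC6, the codes with at least 2 libraries of 20 cells in both groups. In 12 tests of members in these codes edgeR called 0, with 4 at an unadjusted p under 0.05. Of all genes, those at an unadjusted p under 0.05 were 100 of 1486 in DC1, 136 of 1578 in DC2, 133 of 1737 in DC3, 43 of 383 in DC4, 109 of 889 in DC5 and 140 of 903 in DC6. The shares of all genes called were 0.0673% in DC1, 0.19% in DC2, 0% in DC3, DC4 and DC5, and 0.443% in DC6. DESeq2 called 1 member, Cd209a in DC6 (2.88% of genes called). In DC2, Clec9a was 347, 366 and 653 CPM in day 14 replicates 2 to 4 and 229, 123, 162 and 229 CPM at day 2, with no overlap. Its log2 fold change was 1.32 ± 0.33 with an adjusted p of 0.273, and 1.41 ± 0.32 with an adjusted p of 0.00760 with the replicate block.

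Xcr1 in DC2 was 293, 695 and 594 CPM in day 14 replicates 2 to 4 and 164, 0, 333 and 0 CPM at day 2, so that the groups overlapped. It changed by 1.86 ± 0.74 (adjusted p = 0.478), and by 2.05 ± 0.43 (adjusted p = 0.00514) with the block, in a fit that called 3.55% of genes in DC2. Cd209a in DC6 was 901, 747, 1748 and 1456 CPM at day 14 and 516, 610.2 and 125 CPM in day 2 replicates 1, 3 and 4, with no overlap. Its log2 fold change was 1.51 ± 0.49 (adjusted p = 0.224). Paired by replicate number it was 1.60 ± 0.35 (adjusted p = 0.00444), where 5.54% of genes were called. In DC3 it was 797, 2934 and 2371 CPM in day 14 replicates 1, 3 and 4 and 650.2, 434, 877 and 644 CPM at day 2, with an adjusted p of 0.363, or 0.241 with the block (0.0576% of genes called). Fscn1 in DC5 changed by 1.09 ± 0.70 unpaired and by 1.58 ± 0.51 with the block (adjusted p = 0.0361, 7.09% of genes called). Only 2 day 2 libraries, replicates 2 and 3, held at least 20 DC5 cells, so the block held 2 pairs. By the levels given above, Fscn1 was higher at day 14 only in the pair numbered 3, which holds the high day 14 library. The block therefore brought 4 of the 12 tests past the threshold. The filter on low counts asked for 3 libraries at or above its cut-off in DC2 and DC6. Xcr1 in DC2 had 2 such libraries at day 2 and 3 at day 14, and Cd209a in DC6 had 2 and 4. Neither would have passed it without the day 14 libraries, where they are high, so their calls are not read as a result.

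In blood DC, Cd209a rose at day 14. It stood at 426 and 691 CPM in sham replicates 1 and 2, at 1462 CPM in the 1 day 2 library with at least 20 DC, and at 2239, 1585 and 1476 CPM at day 14. All 3 day 14 libraries were above both sham libraries, with means of 1767 ± 413 (SD, n = 3) and 558 ± 188 CPM (SD, n = 2). The log2 fold change was 1.80 ± 0.34 (adjusted p = 0.0113), 1 of 3 members tested, in a comparison that called 5 of 1390 genes (0.36%). The call was lost without sham replicate 1 (adjusted p = 0.0891), without day 14 replicate 2 (0.117) or 3 (0.0507), and with a minimum of 10 cells (0.0761). Without sham replicate 1 the lone sham library is taken to vary like the day 14 libraries. Pooled Cd209a was 884 CPM in sham and 2167 CPM at day 14 in blood code DC1, and 325 and 2022.5 CPM in DC2, from 24 and 13 sham cells. In DC3, DC4 and DC5 the sham or day 14 level rests on under 3 counts.

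The makeup of blood DC moved with this result. The summed monocyte or macrophage list was 7022 to 7470 CPM in the sham libraries and 16471 to 29895 CPM at day 14, while that of plasmacytoid DC was 2162 to 4543 CPM in sham and 321 to 1261 CPM at day 14. The dendritic list, which holds Cd209a, summed to 18505 to 27436 CPM in sham and 28759 to 35501 CPM at day 14. The neutrophil list stood at 6013 CPM in sham replicate 1 and at most 143 CPM at day 14. Blood DC2, whose leading list was that of monocytes or macrophages, held 24.1% to 33.9% of DC at day 14 and 7.1% to 17.6% in sham. Blood DC5, the code with the lowest pooled Cd209a (459.9 CPM) and the plasmacytoid list as its highest, held 20.6% to 42.9% of DC in sham and 4.6% to 13.9% at day 14. The part of these lists and codes in the result was not tested. Flt3 in blood DC was 193 and 546 CPM in sham and 163, 208 and 233 CPM at day 14 (log2 fold change -0.63 ± 0.47, adjusted p = 0.792). Clec9a was 0 and 213 CPM in sham and 107, 174 and 80.8 CPM at day 14 (adjusted p = 0.917). Zbtb46 was seen in 1 sham and 1 day 14 library, at 38.7 and 40.3 CPM. Ccr7 was 345 and 51.8 CPM in sham, and 0, 0 and 27.0 CPM at day 14, and neither of these genes passed the filter on low counts.

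Set side by side at day 14, brain DC had less Cd209a than blood DC. The log2 difference of Cd209a, brain minus blood, was -1.30 ± 0.24 (adjusted p = 0.0129), with 435 to 757 CPM in brain and 1476 to 2239 CPM in blood. The monocyte or macrophage list summed to 3047 to 4759 CPM in these brain DC and to 16471 to 29895 CPM in blood DC, and its part in the Cd209a difference was not tested. It was called in a comparison where edgeR called 364 of 4777 genes (7.62%). The Cd209a call was lost without blood replicate 1 (adjusted p = 0.0795) or 2 (0.0820). Flt3 differed by 0.17 ± 0.26, Clec9a by 0.22 ± 0.61 and Zbtb46 by 0.93 ± 0.77, with adjusted p values of 0.590 to 0.905. Ccr7 had 1180 counts in brain DC and 2 in blood DC, a ratio of pooled CPM of 93.3 with a 95% counting interval of 25.8 to 771. Every brain library (202 to 770.0 CPM) was above every blood library (0 to 27.0 CPM). This is a description of the levels: Ccr7 passed the filter on low counts only through the brain libraries, where it is high, so its test is not given. Brain and blood cells were isolated by different procedures, so tissue and procedure cannot be told apart.

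The change in Cd209a from sham to day 14 differed between the tissues, in a test that was added after seeing the data. The brain change minus the blood change was -2.78 ± 0.47 on the log2 scale (adjusted p = 0.0358), 1 of 4 members tested, in a test of the difference that called 2 of 1977 genes (0.101%). The call was lost without brain sham replicate 2 (adjusted p = 0.0664) or 4 (0.0524), without blood sham replicate 1 (0.202) or 2 (0.0910), and without blood day 14 replicate 1 (0.113). Without either blood sham replicate the lone blood sham library is taken to vary like the other groups. The same difference for Flt3 was 1.20 ± 0.55 (adjusted p = 0.472).

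**Figure D5:**
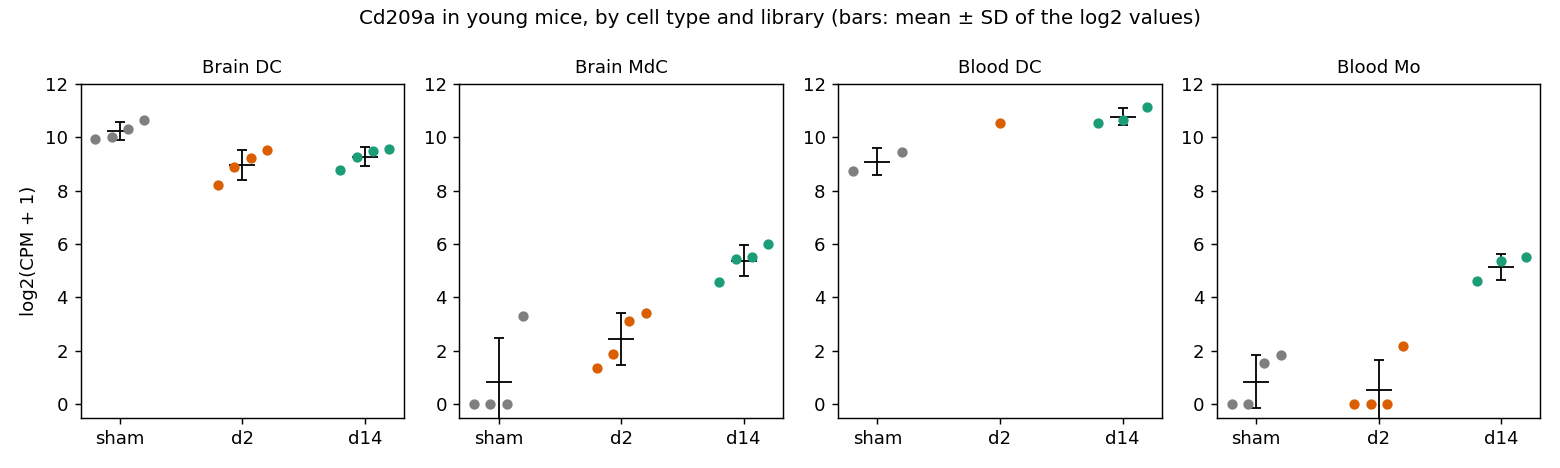
Cd209a in brain DC, brain MdC, blood DC and blood Mo as log2(CPM + 1), with 1 point per library of at least 20 cells and bars for the mean ± SD of these log2 values, which the lower edge of the axis can cut off. Brain DC lie at 966 to 1611 CPM in sham and at 435 to 757 CPM at day 14, while all day 14 libraries of blood DC, brain MdC and blood Mo lie above those of sham.

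Outside DC, Cd209a was also followed in brain MdC, cells with monocyte or macrophage markers. It stood at 9.6, 2.7, 7.7 and 1.6 CPM at day 2 and at 22.7, 42.9, 44.2 and 62.2 CPM at day 14, with no overlap. The ratio of pooled CPM was 5.87 (95% counting interval 4.31 to 8.09). Against sham, where MdC held 1 Cd209a count in all, the ratio at day 14 was 8.42 (1.49 to 335). Of the libraries at or above the cut-off of the filter on low counts, 0 were sham, 0 were of day 2 and 4 were of day 14. Cd209a thus passed that filter only through the group where it is high, and its tests in MdC, in comparisons that called 1.79% of all genes against day 2 and 5.15% against sham, are not read as a result. In pooled codes at day 14, Cd209a was 91.6 CPM in MdC5, 79.3 in MdC3, 53.2 in MdC4 and 1.1 in MdC6.

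The dendritic cell list, of which Cd209a is 1 of 12 genes, was likewise followed in MdC. It summed to 7291 to 11829 CPM at day 14, 2435 to 3507 CPM at day 2 and 1498 to 8520 CPM in sham, and its part in the Cd209a levels was not tested. H2-Aa, a gene of MHC class II and 1 of the 12, was 1467 to 2347 CPM at day 14 and 399 to 787 CPM at day 2. Its sham level is not given here, and the list sum overlapped between sham and day 14. The lineage genes were near 0 in MdC at day 14: Flt3 at 0 to 10.3 CPM, Clec9a at 0.70 to 3.4, Xcr1 at 0 to 3.4 and Zbtb46 at 0 to 2.2. In the aged brain, MdC held Cd209a at 0 to 2.6 CPM at day 2 and at 0 in the 1 library of day 14. In that library MdC3 had 43 cells, or 49.4% of its MdC, and 3 counts in MdC3 correspond to 151 CPM. This 0 thus rests on few cells and was not set against the young levels of day 14.

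In blood cells labelled Mo, whose leading list was that of monocytes or macrophages, Cd209a stood at 0, 1.9, 2.6 and 0 CPM in sham, 0, 0, 0 and 3.6 CPM at day 2, and 44.4, 39.6 and 23.2 CPM at day 14. With 66 counts at day 14 and 2 in each other group, the ratios of pooled CPM were 37.7 against sham (95% counting interval 10.0 to 318) and 29.9 against day 2 (7.97 to 252). All 3 day 14 libraries were above all 8 others. Cd209a passed the filter on low counts only through the day 14 libraries, where it is high, so its tests in Mo, in comparisons that called 0.254% of all genes against sham and 0.537% against day 2, are not read as a result. The dendritic list summed to 2309 to 4447 CPM in Mo at day 14, 976 to 3296 in sham and 751 to 1559.9 at day 2, and its part was not tested. In pooled codes at day 14 Cd209a was 171 CPM in Mo5, 34.3 in Mo1 and 30.0 in Mo4. Zbtb46 was at 0 in Mo of all 11 libraries, and Flt3 was 0 to 20.9 CPM at day 14 and 27.4 to 30.3 CPM at day 2. The filter asked for 3 libraries at or above its cut-off, and Flt3 had 1 in sham, 4 at day 2 and 1 at day 14. Flt3 would not have passed it without the day 2 libraries, where it is high. Its edgeR test (log2 fold change -1.05 ± 0.60, adjusted p = 0.777) is therefore not read as a result. No other test of a member in a blood type other than DC passed.

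Fscn1 fell in microglia after stroke. Its levels in Mg were 388, 211, 211 and 190.4 CPM in sham, 92.9, 118, 0 and 126 CPM at day 2, and 82.0, 89.9, 90.5 and 86.8 CPM at day 14. All 8 stroke libraries were below all 4 sham libraries. The log2 fold change was -1.06 ± 0.33 at day 2 (adjusted p = 0.0278), where 31.4% of 10145 genes were called, and -1.04 ± 0.32 at day 14 (adjusted p = 0.0434), where 15.2% were called. Day 14 and day 2 differed by 0.02 ± 0.33. The aged libraries were lower after stroke too, at 189 and 198 CPM in sham, 81.6, 65.1 and 108 CPM at day 2 and 79.6 CPM at day 14.

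Several limits touch the Fscn1 calls in microglia. The day 2 library at 0, replicate 3, held 58 Mg cells whose microglia list summed to 820.3 CPM against 12672 to 27778 CPM in the other 11 young libraries, and without it the change was -0.94 (adjusted p = 0.0160). The day 2 call was lost without each sham library in turn (adjusted p 0.0517 to 0.0744) and without day 2 replicate 1 (0.115). The day 14 call was lost without each sham (0.0729 to 0.102) or day 14 library in turn (0.0519 to 0.103) and without day 2 replicate 1 (0.0650). The authors' microglia codes shifted as well: the codes Mg4 and Mg5 held 38.4% and 33.8% of Mg at day 2 with pooled Fscn1 at 79.9 and 119 CPM, and Mg3 held 66.1% at day 14 with 71.7 CPM. In Mg1 pooled Fscn1 was 260.1 CPM in sham, 209 at day 2 and 306 at day 14, and the part of these codes was not tested.

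Members other than Fscn1 and Cd209a passed in no other brain type. Zbtb46 in endothelial cells was 89.6, 58.7, 59.5 and 19.0 CPM in sham and 45.5, 25.8, 24.1 and 36.6 CPM at day 2, overlapping groups with a log2 fold change of -0.77 ± 0.36 (adjusted p = 0.162). Ccr7 in brain Bc ranged from 0 to 1275 CPM between libraries without a call. In blood it was even, at 301 to 542 CPM in Tc and 157 to 338 CPM in Bc, and no comparison passed. Of 12 tests of members in 8 other brain types, those read as a result that passed were the 2 of Fscn1 in Mg. Among types with no member called, the shares of all genes called reached 0.0762% in brain BAM at day 14, 0.0114% in blood Bc, and 5.99% and 4.69% in blood Neu at day 14 against sham and day 2.

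In the aged brain the DC numbered 24 in the female and 8 in the male sham library, so only the female library entered. Cd209a was 751 CPM in that library (10 counts) and 299 CPM in the male sham library (2.0 counts). It was 47.0 CPM in the male stroke library of day 2 (2.7 counts), 60.1 and 111 CPM in the 2 female stroke libraries of day 2, and 473 CPM in the female stroke library of day 14. At day 2 against sham its log2 fold change in aged mice was -2.80 ± 0.70 (adjusted p = 0.377), in a fit with the young day 2 groups that takes the lone sham library to vary like the others. That fit called 0 of 3497 genes (0%), with 336 at an unadjusted p under 0.05, 2 of 8 members among them. The aged minus the young change was -1.63 ± 0.76 (adjusted p = 0.686), with 0% of genes called and 204 at an unadjusted p under 0.05. The aged day 2 libraries were all below the young day 2 libraries (292 to 732 CPM). The log2 difference between ages was -2.79 ± 0.42, with an adjusted p of 0.226 in edgeR. That test called 0 of 3096 genes (0%) and had 164 at an unadjusted p under 0.05, 3 of them members. These were Cd209a, Clec9a and Fscn1. Whether Clec9a and Fscn1 passed the filter on low counts mainly through the aged libraries, where their means are higher, was not tested. Their places in this count are therefore not read as a result. DESeq2 called 3 genes (0.0969%), Cd209a among them (adjusted p = 0.000141), and edgeR without the filter on low counts gave 3.96e-09. Of the 7 omissions of 1 library, that of young day 2 replicate 2 gave a call in edgeR (-2.95, adjusted p = 0.0285) and the other 6 did not (adjusted p up to 0.930, values from -3.31 to -2.55). In single codes of the aged day 2 libraries, pooled Cd209a was 164 CPM in DC1, 115 in DC3 and 147 in DC6. The young libraries are all male, and of the aged day 2 libraries 1 is male and 2 are female. With sex as a covariate the difference was -3.31, a value that rests on the 1 aged male library with its 2.7 counts. Aged and young libraries were deposited in different tables, and age and table cannot be told apart.

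The other members differed less in size between ages at day 2. Flt3 was 183, 187 and 189 CPM in the aged libraries (log2 difference 0.08 ± 0.23 from the young). Fscn1 was 182, 150.2 and 232 CPM, all above the 4 young libraries, with a log2 difference of 1.77 ± 0.67. Clec9a was 21.0, 173 and 94.8 CPM, with a log2 difference of 1.21 ± 0.46 (adjusted p = 0.925). For the reason given above on the filter, neither the Fscn1 nor the Clec9a difference is read as a result. Ccr7 was 278, 284 and 374 CPM, Ccl22 205, 59.4 and 224 CPM, and Xcr1 34.7, 106 and 17.0 CPM. Zbtb46 was 12.3, 10.0 and 25.1 CPM, from 0.7 to 2.9 counts. In the aged day 14 library Xcr1 was 311 CPM, Clec9a 229.5 CPM and Ccl22 324 CPM.

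Genes that accompany the members were read from lists named for their function. Of 15 tested genes of mature migratory DC, 0 rose and 1 fell at day 2 against sham, with a median log2 fold change of 0.50 against 0.05 over all genes. At day 14 against sham 2 rose and 1 fell, with a median of 1.68 and 14 positive values against 0.05 over all genes. The 2 that rose were Relb (2.01 ± 0.39, adjusted p = 0.0255), a subunit of NF-kB, and Il4i1 (2.16 ± 0.43, adjusted p = 0.0258), an amino acid oxidase. Ccl17, like Ccl22 a ligand of Ccr4, was the 1 that fell, with a log2 fold change of -3.22 ± 0.39 at day 2 (adjusted p = 0.00230) and -3.41 ± 0.38 at day 14 (adjusted p = 0.000767). DC held 93.9% of the Ccl17 counts of the young brain. At day 14 against day 2 Nudt17 (2.85 ± 0.43) and Ccl5 (2.64 ± 0.58) rose, with a list median of 1.05 against 0.03 over all genes. With the replicate block 4 of 15 rose, among them Il12b (3.78 ± 0.67), a subunit of interleukin-12. The shares of all genes called in these fits of brain DC are given above. Whether listed genes called in brain DC, here and below, passed the filter only through groups where they are high was not tested. The numbers called are therefore not read as a result.

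Of 9 tested genes of cDC1, none passed against sham at either day (medians -0.33 and 0.37), and Itgae, the integrin CD103, rose at day 14 against day 2 (2.57 ± 0.48, adjusted p = 0.0262). Of 7 genes of cDC2, Mgl2, a lectin, fell at day 14 against sham (-2.91 ± 0.64, adjusted p = 0.0375) and none passed in the other comparisons (medians -0.22, -0.37 and -0.24). Of 12 genes of DC development, Kit, a receptor of progenitors, rose at day 14 against sham (2.60 ± 0.54, adjusted p = 0.0298), and none passed otherwise. None of 5 genes of plasmacytoid DC passed. Between brain and blood DC at day 14, 11 of 16 mature migratory genes passed the filter on low counts, but only 2 of these 11 passed it in blood DC alone. The others, Socs2 and Ccl5 among them, did not pass it in blood DC alone, nor did Itgae, Irf7 and Kit of the other lists. Whether these entered only through the brain libraries, where they are high, was not tested, so their number is not read as a result. The 2 that passed in both, named here after their values were seen, were higher in brain: Samsn1 by 1.74 ± 0.40 (adjusted p = 0.0276) and Tmem123 by 2.40 ± 0.49 (adjusted p = 0.0175). Id2, a regulator of DC development that also passed in both, was higher by 1.76 ± 0.36 (adjusted p = 0.0180), and none of 9 cDC2 genes was called. In blood DC at day 14 and between ages at day 2, no listed gene was called.

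Of the partners of the members, Ccl17 lay in DC, as given above, and the others named here were highest in other cells. Xcl1, the ligand of Xcr1, stood at 2518 CPM in the cells labelled NK, which held 70.6% of its counts in the young brain, and at 389 CPM in Tc. Flt3l, the ligand of Flt3, stood at 111 CPM in NK, 83.4 CPM in Tc and 14.2 CPM in DC. Ccr4, the receptor for Ccl22, stood at 10.1 CPM in Tc (8.9 counts).

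Likeness was measured as Pearson's r of log2(CPM + 1) over 55 coded subtypes of the young brain and 14997 genes, pooled from the same 12 libraries, as a description. The closest to Xcr1 were Gpr33 (r = 0.88), Gcsam (0.85) and Gpr141b (0.81), and to Clec9a they were Ffar4 (0.91), Flt3 (0.87) and Prss30 (0.87). The closest to Cd209a were Clec10a (0.86), Bex6 (0.84) and Flt3 (0.82), and to Flt3 they were Clec9a (0.87), Upb1 (0.85) and Cd209a (0.82). Zbtb46 was closest to Zfp366 (0.89), Gpr4 (0.77) and Ece1 (0.75). Ccl22 was closest to Adam23 (0.90), Ccl17 (0.83) and 5430437J10Rik (0.78), and Ccr7 to Btla (0.81), P2ry10 (0.76) and Dpp4 (0.76). Fscn1, which has its counts in 2 cell types, had the lowest values, with Gal3st4 (0.71), Upk1b (0.71) and Chst8 (0.69).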

How the data were processed

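The deposited tables hold expected counts per gene and cell. The authors labelled each cell with a type and a code, and the values are fractional; how they became so is not given in the sources used here. The deposited percent of mitochondrial counts per cell, made by the authors, was read for checks only. Its median over the DC of a young brain library was 0.39% to 4.88% in sham, 0.20% to 2.18% at day 2 and 0.10% to 2.84% at day 14. In both stroke groups replicates 1 and 2 (up to 0.27%) lay below replicates 3 and 4 (from 1.80%), and so did their Cd209a in DC. The part of this in the results was not tested. The submitters' processing notes name mm10 and Seurat. All samples were grouped by their labels, and no cell was removed. Counts were summed per library and type (or code) and rounded, and sums of under 20 cells were left out. Differences were tested with edgeR 4.0.16 in R 4.3.3 (filterByExpr, TMM scaling, quasi-likelihood test, all groups of a type in 1 fit), with Benjamini-Hochberg adjustment over all genes tested and calls at an adjusted p under 0.05. DESeq2 1.42.0 was an alternative. Descriptive tables were made with Python 3.11.15 and pandas 2.3.3. Counting intervals are at 95%, a count of 0 allows up to 3 counts, and both cover counting error only.

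The members and gene lists were chosen with earlier results of these data known. The text names members in every comparison, though not all 8 in each. For stroke in aged mice and for aged minus young it gives the change of Cd209a only, and for brain minus blood those of Cd209a and Flt3. It also names the called genes at both ends of each list (2 by the most positive and 2 by the most negative log2 fold change), and the 3 genes most like each member. The lists were mature migratory, cDC1, cDC2, plasmacytoid and development genes of DC, and partners of the members. Stroke at day 2 in aged mice was fitted with the 4 day 2 brain groups together. The comparison of ages at day 2 (with sex as a covariate) and the test of the difference between brain and blood were added after seeing the data.

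Replicate numbers come from the labels, which do not say what they share. In brain DC, same-numbered libraries of day 2 and day 14 deviated together (r 0.191 to 0.739, against -0.614 to 0.359 for different numbers), as in MdC (0.268 to 0.758), so a replicate block was used for day 14 against day 2. Sham pairs did not (-0.139 to 0.124). Scrublet from Scanpy 1.11.5 marked 0% to 0.225% of the cells of a library and so did not work as a doublet filter. DC with a count of a T or B cell gene were left out as an added alternative. On simulated counts for 4182 genes of brain DC at day 14 against sham, the test called 55.6% of genes changed 4-fold, 89% of those changed 8-fold and 1 of 3992 unchanged genes. All genes were simulated with the same spread, and with no shift between replicate numbers or DC codes. These rates therefore may not hold for the data.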

Additional observations from a re-analysis of the deposited data

Results flagged for a closer look

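In 42 groups of 4 libraries, a gap between 1 library and the rest above Dixon's 95% critical value was looked for, and 6 groups showed one. Where all other libraries are at 0, as for Xcr1 in sham DC and Cd209a in MdC and Mo, any count gives a flag. The rate of 1 in 20 groups by chance does not apply there, so the number of flags is not set against it. Fscn1 in brain DC was 628 CPM in day 14 replicate 3, against 139 to 173 CPM in the others. Ccl22 was also high in that library's DC, at 312 CPM against 87.0 to 89.9 CPM. Xcr1 in sham DC was 199.9 CPM in replicate 3 and at 0 in the others. Fscn1 in sham microglia was 388 CPM in replicate 1, against 190.4 to 211 CPM. Cd209a was 8.88 CPM in MdC of sham replicate 1 and 3.59 CPM in Mo of blood day 2 replicate 4, with 0 in the other 3 libraries of each group, and each of these levels rests on 1 or 2 counts. The change of Cd209a from sham to day 14 differed between brain DC and blood DC by -2.78 on the log2 scale, as tested above.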

How the results depend on the processing

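Genes called in brain DC were 87 (DESeq2), 124 (no filter on low counts) and 111 (values rounded up) at day 2 against sham; 128 (no filter) and 127 (rounded up) at day 14 against sham; and 116 (DESeq2), 60 (no filter) and 59 (only the compared groups) at day 14 against day 2. In blood DC they were 2 (DESeq2 or a minimum of 10 cells), 36 (no filter) and 3 (library size without TMM). Members called were 1 with DESeq2 at day 2 against sham, at day 14 against day 2, between ages and within subtypes; without the filter they were 2 at day 14 against sham, in blood DC and for brain minus blood, and 1 at day 14 against day 2, between ages and within subtypes. A minimum of 10 cells left 0 in blood DC.

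With the replicate block, the genes called at day 14 against day 2 were 111 in brain DC, or 266 with only the compared groups, with 1 member in each. In blood DC, where the numbers do not pair the libraries, those called at day 14 against sham were 12. The block gave 4 members called within subtypes and 2 in other brain types (Fscn1 in Mg at day 14, adjusted p = 0.0550, and Cd209a in MdC at day 14 against sham, adjusted p = 0.0592, were lost), and a Ccl22 change of 0.14 at day 2, reversed. It changed no other member's call. Counts of members called in other types include Cd209a in brain MdC and blood Mo, whose tests are not read as a result. Those between brain and blood DC include Ccr7, whose test is not given for the same reason.

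Other reversals were Xcr1 at day 2 (0.28 without the filter, 0.10 rounded up), Ccl22 without the filter at day 2 (0.28) and at day 14 against sham (0.12), and Flt3 between brain and blood without TMM (-0.0064). None of these was called in the report; the cause was not tested.

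With 1 library left out, genes called ranged from 16 to 85 at day 2 against sham, 15 to 71 at day 14 against sham, 0 to 35 at day 14 against day 2, 0 to 26 in blood DC and 85 to 383 between brain and blood. Members called ranged from 0 to 0 against sham and within subtypes, 0 to 1 at day 14 against day 2, between ages and for brain minus blood, 0 to 2 in blood DC and in other blood types, 1 to 2 between brain and blood and 1 to 4 in other brain types. Log2 fold changes that reversed ranged at day 2 against sham from -0.51 to 0.81 (Ccl22), -0.72 to 0.54 (Clec9a), -1.12 to 0.0098 (Fscn1) and -1.34 to 6.26 (Xcr1). At day 14 they ranged from -0.89 to 0.67 (Ccl22 against sham), -0.77 to 0.060 (Ccl22 against day 2) and -0.00202 to 0.49 (Cd209a against day 2). In blood DC they ranged from -0.57 to 6.52 (Clec9a) and -1.24 to 0.13 (Flt3), and between brain and blood from -0.15 to 0.76 (Clec9a).

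Scaling without TMM moved the median of all genes in Mg at day 14 from -0.04 to -0.49, and Fscn1 relative to it from -1.0 to -1.01. In MdC at day 14 against sham the median moved from 0.28 to -0.11, and Cd209a relative to it from 3.40 to 3.42. In the fit of stroke in aged mice the median of all genes moved from 0.61 to 0.18, with Cd209a at -3.41 relative to it both ways. That fit called 1 gene with DESeq2 and 8 without the filter, and aged minus young called 1 without the filter, with 0 members in each. With sex as a covariate, Cd209a was -2.67 at day 2 against sham in aged mice and -1.50 for aged minus young, neither called. Batch was not run as a covariate, since the tables name none, and day 2 in blood DC was not tested with 1 library. The number of sham DC limits the depth of each comparison with sham.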
